A study of Mus musculus with 48 samples.

Results

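Colonic expression of the genes for electroneutral salt and water absorption was examined in mice with and without the clock gene Bmal1 in the intestinal epithelium. The group holds 10 of the 55401 genes counted, chosen by symbol: the Na/H exchangers Slc9a2 and Slc9a3, the bicarbonate transporters Slc26a3 and Slc4a4, the carbonic anhydrases Car1, Car2 and Car4, the water channels Aqp4 and Aqp8, and the chloride channel Cftr. RNA of whole colon was sequenced from 48 male C57BL/6J mice, with 4 per genotype and time at 6 circadian times (CT1, CT5, CT9, CT13, CT17 and CT21, in hours). The mice were 18 to 20 weeks old, were fed ad libitum, and were killed on the second day of constant darkness. All of them carried the floxed Bmal1 allele on both chromosomes. Controls (Bmal1fl/fl x Villin wt/wt, labelled Bmal1fl/fl) lacked Cre, and their Bmal1 IEC-/- littermates (Bmal1fl/fl x Villin CRE/wt, labelled Bmal1iec-/-) carried Cre under the Villin promoter, which is active in intestinal epithelial cells. Cre alone was not tested in a separate group. The values below come from 46 mice, 24 controls and 22 Bmal1 IEC-/- mice, since 2 Bmal1 IEC-/- mice at CT1 did not enter the analysis of the study. This left 2 Bmal1 IEC-/- mice at CT1.

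Total counts ran from 3144997 to 4785844 per mouse. Arntl, the gene for BMAL1, had group means of 26.41 to 260.0 normalized counts in controls and of 113.6 to 177.3 in Bmal1 IEC-/- mice, counted over the whole gene and in all cell types of the wall. Nr1d1, a direct BMAL1 target, peaked at 557.0 ± 123.2 (SD, n = 4) at CT9 in controls and at 190.1 ± 46.06 (SD, n = 4) at CT5 in Bmal1 IEC-/- mice. All 10 markers of colonic epithelium were tested, with summed levels of 6807 to 9891 CPM (counts scaled to a common library size) in controls and 7679 to 10274 in Bmal1 IEC-/- mice. Smooth muscle markers were present as well, at 4213 to 6418 and 3726 to 5945 CPM. In whole tissue, fewer cells of a type and less RNA per cell cannot be told apart.

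The colon takes up salt without net charge movement by coupling apical Na/H exchange with apical chloride/bicarbonate exchange, and water follows the salt. Carbonic anhydrases hydrate carbon dioxide and so supply the protons and bicarbonate that the exchangers use. Cftr works in the opposite direction: it is the apical chloride channel of fluid secretion, and Slc4a4, a basolateral sodium bicarbonate cotransporter, loads epithelial cells with bicarbonate.

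BMAL1 binds E-boxes (CACGTG) with its partner CLOCK, and the Rev-erb repressors that it drives bind the hexamer AGGTCA. The RefSeq promoter table (GRCm38.p6) had entries for 6 of the 10 genes: Slc9a3, Slc26a3, Slc4a4, Car4, Aqp8 and Cftr. The 250 bases before the start were searched for both motifs and for the D-box TTATGTAA on both strands, and no motif overlapped another. An E-box was present in Slc9a3, 87 bases before its start (position -87), and in Aqp8 at -75, where 6.02% of 32851 promoters of this length held one. The hexamer was present in Slc26a3 at -133 and, on the reverse strand as TGACCT, at -121 in the second of 2 Slc4a4 starts, where 14.02% of all promoters held one. The D-box, held by 0.82%, was found in none of these entries. Car4, Cftr and the first Slc4a4 start held none of the 3 motifs. The 4 promoters below are shown for the following reasons. Among the 6 searched members, Slc9a3 and Aqp8 are those with an E-box in these 250 bases. Slc26a3 fell most in Bmal1 IEC-/- mice, and Car4 fell and had a changed course over the day without any match. Motifs are in capitals, and all 4 lie on the plus strand, at chr13:74121163-74121412, chr7:123462044-123462293, chr12:31437969-31438218 and chr11:84957504-84957753. The Slc26a3 start used by RefSeq lies inside the longer gene of the GENCODE annotation.
Slc9a3: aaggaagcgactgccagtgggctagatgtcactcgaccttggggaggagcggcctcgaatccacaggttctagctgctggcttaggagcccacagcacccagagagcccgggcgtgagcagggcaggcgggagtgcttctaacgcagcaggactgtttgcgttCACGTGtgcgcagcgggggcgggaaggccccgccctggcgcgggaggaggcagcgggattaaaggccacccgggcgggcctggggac
Aqp8: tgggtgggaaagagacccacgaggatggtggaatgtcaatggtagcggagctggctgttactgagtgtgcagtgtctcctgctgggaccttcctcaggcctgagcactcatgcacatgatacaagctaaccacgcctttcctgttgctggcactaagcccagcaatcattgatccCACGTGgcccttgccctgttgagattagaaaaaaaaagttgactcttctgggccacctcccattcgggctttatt
Slc26a3: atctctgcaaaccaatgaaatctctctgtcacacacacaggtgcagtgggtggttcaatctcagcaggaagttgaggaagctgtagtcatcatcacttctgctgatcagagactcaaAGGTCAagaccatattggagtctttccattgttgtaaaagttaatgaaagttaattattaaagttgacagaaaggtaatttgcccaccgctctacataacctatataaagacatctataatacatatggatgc
Car4: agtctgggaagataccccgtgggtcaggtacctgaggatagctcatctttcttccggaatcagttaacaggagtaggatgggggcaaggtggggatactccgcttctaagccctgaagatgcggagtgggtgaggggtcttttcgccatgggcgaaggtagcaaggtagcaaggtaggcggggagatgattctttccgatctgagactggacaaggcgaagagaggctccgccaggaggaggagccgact
A match is a stretch of letters and not a measured binding site.

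The 10 genes differed widely in level. Per transcript length, in TPM (counts per length, scaled to a common total) of control mice, Car1 stood first at 25483 ± 2794 (SD, n = 24), followed by Car2 at 1040 ± 93.93 and Car4 at 616.3 ± 92.61. The Na/H exchangers came next, Slc9a3 at 151.7 ± 70.48 and Slc9a2 at 145.1 ± 15.2, then Slc26a3 at 113.9 ± 23.85, Cftr at 76.87 ± 14.35 and Slc4a4 at 46.98 ± 9.624. Aqp8 at 18.66 ± 11.11 and Aqp4 at 14.33 ± 5.099 were lowest. The ranges of Car1, Car2, Car4 and Slc9a3 did not overlap between neighbours in this order. From Slc9a3 downwards the ranges of each neighbouring pair overlapped across the 24 control mice. In Bmal1 IEC-/- mice the order changed in 2 places. Cftr at 77.19 ± 13.87 TPM (SD, n = 22) stood above Slc26a3 at 65.29 ± 18.32, and Aqp4 at 26.35 ± 13.01 stood above Aqp8 at 16.89 ± 19.27, each with overlapping ranges.

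The first comparison asked whether loss of epithelial Bmal1 shifted these genes over all circadian times together. Slc26a3, the apical chloride/bicarbonate exchanger, fell by 41.5% and Car4, the membrane carbonic anhydrase of the apical surface, fell by 31.5%, while Aqp4, the basolateral water channel, rose to 1.92 times the control level. Slc4a4, Slc9a2 and Car2 fell by smaller amounts. Car1, Slc9a3, Aqp8 and Cftr did not pass the test. With edgeR's quasi-likelihood test and Benjamini-Hochberg adjustment over 15073 genes, 6 of 10 members passed at 0.05, against 10.5% of all genes. Of these, 5 were lower in Bmal1 IEC-/- mice (5.72% of all genes) and 1 was higher (4.83%). With a fold change of 1.5 required as well, 2 remained, Slc26a3 and Aqp4, against 1.39% of all genes. The median absolute log2 fold change was 0.15 over the members and 0.08 over all genes. The members, and the gene lists further on, were chosen with earlier results of these data known. The shares over all genes, here and below, therefore cannot test for an excess among them.

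**Figure D1:**
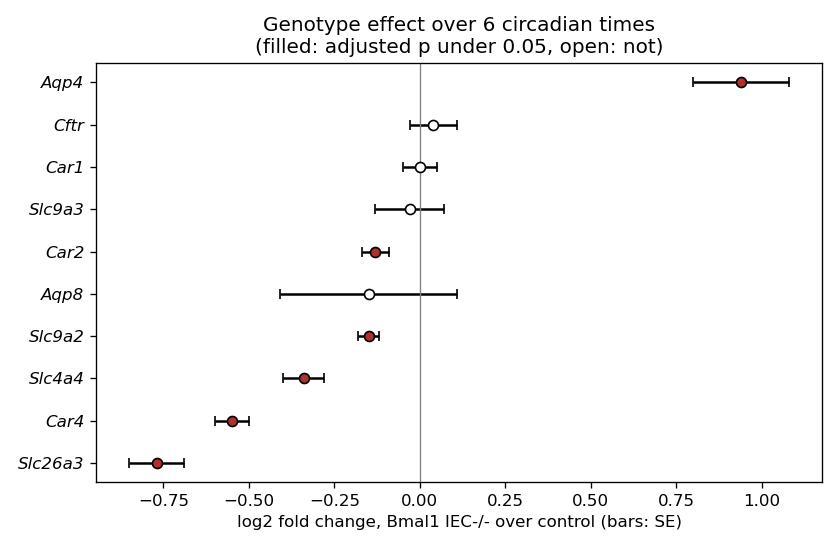
Log2 fold change of Bmal1 IEC-/- over control for each of the 10 genes (x axis), with bars for the SE and filled points for an adjusted p under 0.05 (edgeR). Aqp4 sits at 0.94 on the right, and Slc26a3 at -0.77 and Car4 at -0.55 on the left.

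Of the Na/H exchangers, Slc9a2 changed in its overall level and Slc9a3 did not pass. Slc9a2 (NHE2) had 996.8 to 1473 normalized counts with a median of 1273 in the 24 controls, and 865.7 to 1421 with a median of 1108 in the 22 Bmal1 IEC-/- mice. The ranges overlapped widely, and the log2 fold change was -0.15 (SE 0.03, adjusted p = 0.0011). With all 48 mice the Slc9a2 log2 fold change was -0.11 (adjusted p = 0.0399). The 2 left-out Bmal1 IEC-/- mice at CT1 had 1447 and 1845 normalized counts, against 1318 to 1473 in the 4 controls there. Slc9a3 (NHE3), the main absorptive exchanger of the gut, ran from 517.0 to 2173 with a median of 858.3 in controls and from 568.1 to 1693 with a median of 932.5 in Bmal1 IEC-/- mice. Its log2 fold change was -0.03 (SE 0.10, adjusted p = 0.893). The sign of the difference varied with time: the mean of Bmal1 IEC-/- mice minus that of controls was 36.3% of the control mean at CT21 and -25% at CT9.

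Slc26a3 (DRA) had 675.5 to 1358 normalized counts with a median of 828.7 in controls, and 259.3 to 841.5 with a median of 495.1 in Bmal1 IEC-/- mice. The log2 fold change was -0.77 (SE 0.08, adjusted p = 1.09e-09). At CT9 the 4 controls had 911.1, 1244, 1358 and 1042 and the 4 Bmal1 IEC-/- mice had 576.6, 465.0, 427.2 and 568.3. At CT17 the controls had 850.4, 675.5, 757.0 and 957.7 and the Bmal1 IEC-/- mice 392.0, 327.3, 259.3 and 471.2. At both times every control lay above every Bmal1 IEC-/- mouse, and the mean decreased by 55.3%. The difference was smallest at CT5, where the mean decreased by 21.6% and the mice overlapped. Slc4a4 (NBCe1) had 415.1 to 947.1 with a median of 610.2 in controls and 315.6 to 671.8 with a median of 481.2 in Bmal1 IEC-/- mice, and its log2 fold change was -0.34 (SE 0.06, adjusted p = 7.52e-05). The Slc4a4 mean was lower at each of the 6 times. It decreased by 6.0% at CT5 and decreased by 28.1% at CT13.

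The carbonic anhydrases differed from each other. Car4 had 1152 to 2084 normalized counts with a median of 1538 in controls and 825.9 to 1215 with a median of 1058 in Bmal1 IEC-/- mice. Its log2 fold change was -0.55 (SE 0.05, adjusted p = 4.37e-11). At CT13 the controls had 1698, 2048, 1552 and 2084 and the Bmal1 IEC-/- mice 1125, 1012, 1130 and 1179, so the groups lay apart. Car2, a cytosolic form, had 2680 to 3966 with a median of 3166 in controls and 2300 to 3260 with a median of 3024 in Bmal1 IEC-/- mice. The log2 fold change of Car2 was -0.13 (SE 0.04, adjusted p = 0.0289). This call depends on the mice used: with all 48 mice it was -0.09 (adjusted p = 0.168), and it was lost in 7 of the 46 fits that left out 1 mouse, with an adjusted p of up to 0.0652. Car1, the most abundant member and also cytosolic, had 31618 to 49917 in controls and 32685 to 52095 in Bmal1 IEC-/- mice, with medians of 39415 and 38083 and an adjusted p of 0.975.

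Aqp4 was the one member that rose. It had 53.2 to 193.1 normalized counts with a median of 109.1 in controls and 79.92 to 582.2 with a median of 199.5 in Bmal1 IEC-/- mice. The log2 fold change was 0.94 (SE 0.14, adjusted p = 3.49e-06). At CT13 the controls had 72.79, 82.93, 53.2 and 67.42 and the Bmal1 IEC-/- mice 247.1, 157.5, 158.8 and 136.5. At CT5 the controls had 139.7, 73.67, 106.5 and 177.2 and the Bmal1 IEC-/- mice 184.3, 214.6, 582.2 and 250.8. Every Bmal1 IEC-/- mouse lay above every control at both times. Without the mouse at 582.2, replicate SV477, the log2 fold change was 0.85 (adjusted p = 3.68e-06). Aqp8, a water channel of surface colonocytes, had a low and variable level, 2.746 to 88.94 in controls and 1.903 to 193.7 in Bmal1 IEC-/- mice, and its log2 fold change of -0.15 had an SE of 0.26 (adjusted p = 0.79). The same mouse SV477 held the highest value, and the Aqp8 log2 fold change without it was -0.35 (adjusted p = 0.397). Cftr had 511.2 to 991.3 with a median of 739.3 in controls and 538.7 to 1080 with a median of 756.8 in Bmal1 IEC-/- mice. Its log2 fold change was 0.04 (SE 0.07, adjusted p = 0.778).

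**Figure D2:**
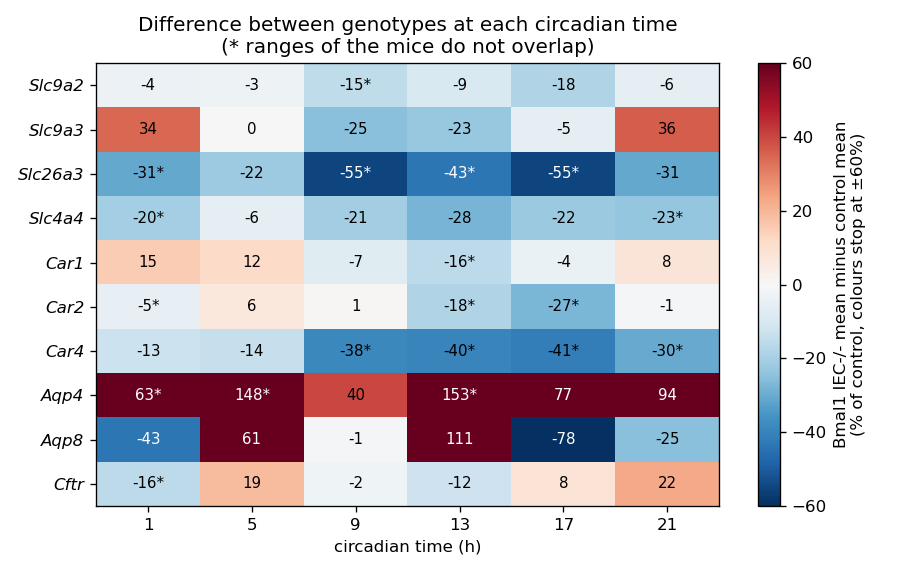
Difference between the genotype means as a percent of the control mean for the 10 genes (rows) at each circadian time (columns), with an asterisk where the ranges of the mice do not overlap and colours that stop at 60%. Slc9a2, Slc26a3, Slc4a4 and Car4 are negative and Aqp4 is positive at all 6 times, whereas Slc9a3, Car1, Car2, Aqp8 and Cftr change sign between times.

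Looked at time by time, the ranges of the genotypes did not overlap at 4 times for Slc26a3 (CT1, CT9, CT13 and CT17) and for Car4 (CT9, CT13, CT17 and CT21), and at 3 times for Car2 (CT1, CT13 and CT17) and for Aqp4 (CT1, CT5 and CT13). Across all tested genes, 2.2% had ranges apart in 1 direction at 3 or more of the 6 times. Ranges at CT1 come apart more easily, since 2 Bmal1 IEC-/- mice stand there against 4 controls. The 2 left-out mice had 3710 and 4069 normalized counts of Car2 there, above the controls at 3071 to 3402. With them the Car2 ranges overlap at CT1. For Slc26a3 (514.7 and 634.6) and Aqp4 (246.2 and 284.9) the left-out mice also lay outside the control ranges, on the same side as the other 2. Slc4a4 was apart at 2 times and Slc9a2, Car1 and Cftr at 1 each. For Cftr, and for 1 of the 2 times of Slc4a4, this was CT1. The left-out mice had 802.0 and 1021 normalized counts of Cftr, against 820.6 to 991.3 in controls there. They had 479.9 and 612.3 of Slc4a4, against 577.9 to 661.2. With these mice both genes overlap at CT1. Slc9a3 and Aqp8 overlapped at every time.

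The second question was whether the genes had a daily course in each genotype. In controls, JTK_cycle (exact null distribution, p adjusted over 12 phases within a gene and not over genes) called 6 of 10 members rhythmic, against 24.1% of 32471 genes with any count. In Bmal1 IEC-/- mice it called 5 of 10, against 14.2%. The 32471 genes include many with too few counts for the edgeR tests, whereas all 10 members passed the filter on low counts. Among genes kept by that filter within each genotype, a 24-h cosine fitted with edgeR called 7216 of 14221 in controls. In Bmal1 IEC-/- mice it called 3380 of 14645. The JTK_cycle shares therefore do not show an excess among the members. By JTK_cycle, Slc9a2 and Aqp8 were called in both genotypes. Slc9a3, Slc4a4, Car4 and Aqp4 were called in controls, and Slc26a3, Car1 and Car2 in Bmal1 IEC-/- mice. Cftr was called in neither, with an adjusted p of 1 in both genotypes. A call in 1 genotype and not in the other does not show that the courses differ, and the test of that difference is given further on.

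**Figure D3:**
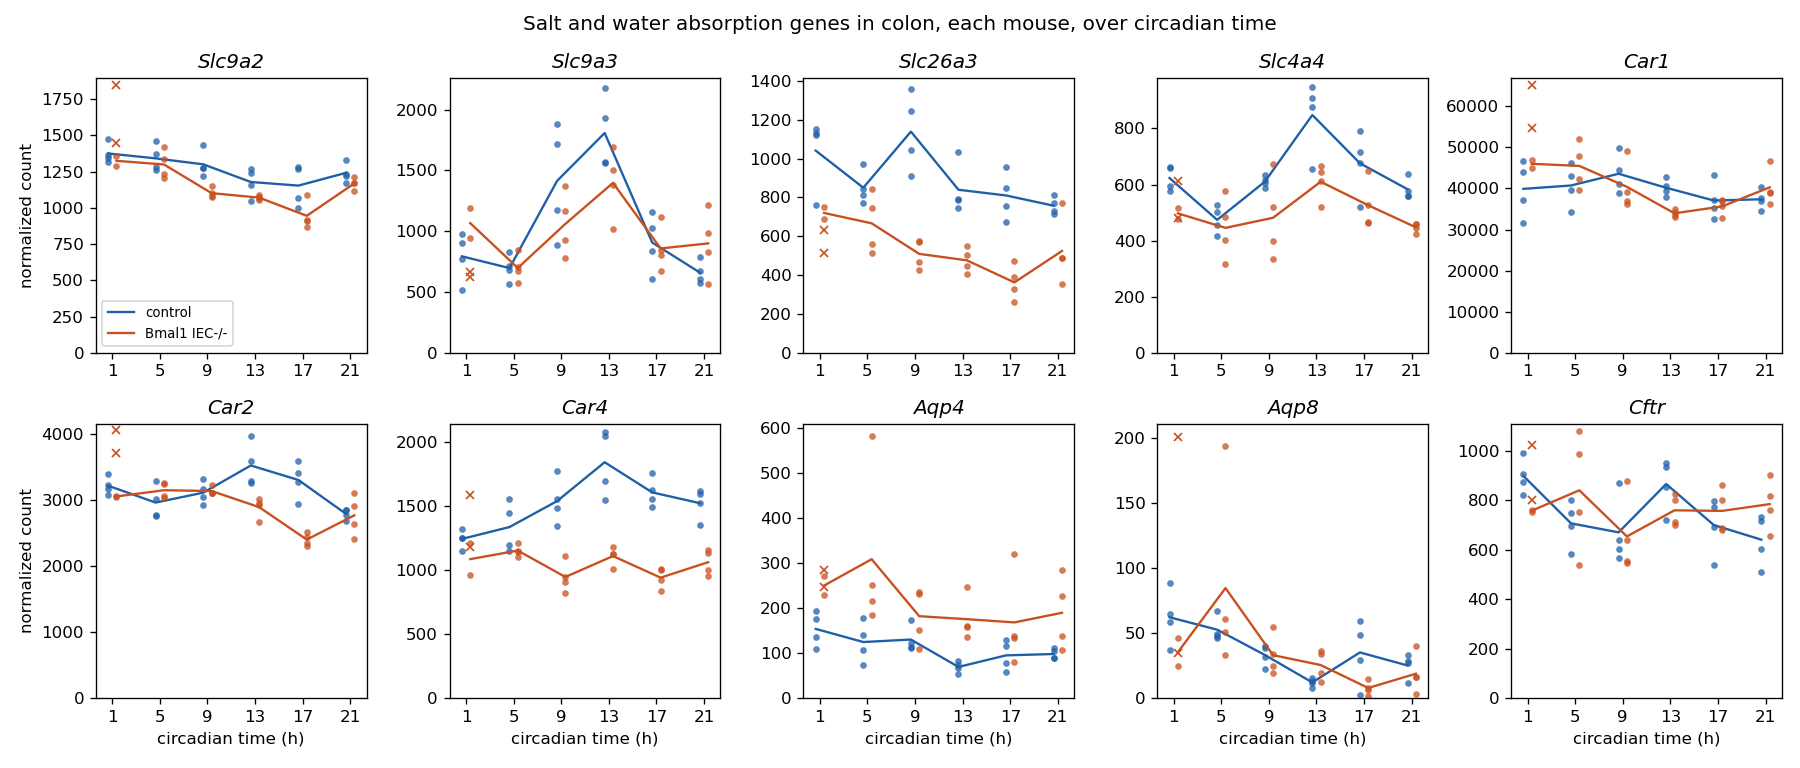
Normalized counts (y axis, from 0) of each of the 10 genes by circadian time in hours (x axis), 1 point per mouse, with lines through the group means of the 46 mice and crosses for the 2 Bmal1 IEC-/- mice at CT1 outside them. Control Slc9a3 and Car4 rise to a maximum at CT13. The Car4 mean line of Bmal1 IEC-/- mice lies below that of controls at all times, with overlapping mice at CT1 and CT5. The Car4 crosses lie at 1181 and 1590, against 1152 to 1325 in the controls at CT1.

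Among the controls, Slc9a3 had the highest peak of the exchangers relative to its mean. The 4 controls at CT13 had 2173, 1567, 1930 and 1559 normalized counts, and at CT21 they had 604.5, 787.8, 574.0 and 672.4, a ratio of means of 2.74. The fitted 24-h cosine had an amplitude of 50.0% of the mean (SE 9.1) with its peak at 11.8 h (SE 0.7, JTK_cycle adjusted p = 0.00057). In Bmal1 IEC-/- mice the CT13 values were 1503, 1376, 1017 and 1693, the amplitude was 22.3% (SE 9.3) and the peak fell at 13 h (SE 1.4, adjusted p = 0.242). Adding the 2 left-out mice gave an adjusted p of 0.0497 for Slc9a3 in Bmal1 IEC-/- mice. Slc9a2 kept its peak near the start of the subjective day, at 3.6 h (SE 0.9) in controls and 2.9 h (SE 0.5) in Bmal1 IEC-/- mice, with amplitudes of 8.9% (SE 2.1, adjusted p = 0.00454) and 15% (SE 2.1, adjusted p = 7.63e-06).

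For Slc26a3 the amplitude was 13.5% (SE 5.5, adjusted p = 0.0583) in controls and 27.9% (SE 6.7, adjusted p = 0.00349) in Bmal1 IEC-/- mice, with a peak at 3.2 h (SE 0.9) in the latter. With the edgeR cosine fit Slc26a3 passed in controls too (adjusted p = 0.0369). In Bmal1 IEC-/- mice the Slc26a3 mean went from 720.1 at CT1 to 362.5 at CT17. Slc4a4 peaked at 14.6 h (SE 0.9) in controls, with an amplitude of 19.5% (SE 4.7, adjusted p = 0.0148), and had 14.1% (SE 6.0, adjusted p = 0.28) in Bmal1 IEC-/- mice. The highest control group mean was at CT13 for Slc4a4 and Slc9a3 and at CT1 for Slc9a2 and Aqp8.

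The carbonic anhydrases again went different ways. Car4 had an amplitude of 17% (SE 3.2) with a peak at 14.1 h (SE 0.7, adjusted p = 0.000441) in controls, and 5.3% (SE 3.5, adjusted p = 1) in Bmal1 IEC-/- mice. Car1 had 7.3% (SE 3.2, adjusted p = 0.162) in controls and 15.7% (SE 3.0, adjusted p = 0.000106) with a peak at 2.8 h (SE 0.7) in Bmal1 IEC-/- mice. Car2 had 6.8% (SE 2.6, adjusted p = 0.241) with a fitted peak at 13.1 h (SE 1.5) in controls and 11.7% (SE 1.9, adjusted p = 4.99e-06) with a peak at 5.8 h (SE 0.7) in Bmal1 IEC-/- mice.

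The water channels both had their fitted control peak early in the day. Aqp8 had an amplitude of 53.7% (SE 13.2, adjusted p = 0.00454) with a peak at 2.5 h (SE 0.9) in controls. In Bmal1 IEC-/- mice its amplitude was 87.4% (SE 28.3, adjusted p = 0.000385) with a peak at 4.9 h (SE 1.3), and the group mean went from 84.69 at CT5 to 7.771 at CT17. The CT5 mean was raised by SV477 at 193.7, where the other mice had 33.27, 60.93 and 50.83. The JTK_cycle adjusted p of Aqp8 in these mice stayed at 7.65e-05 to 0.00153 with 1 mouse left out. Aqp4 had 29.5% (SE 8.4, adjusted p = 0.0302) with a peak at 3.2 h (SE 1.1) in controls and 30.3% (SE 14.4, adjusted p = 0.421) in Bmal1 IEC-/- mice. The Aqp4 call in controls was lost in 8 of the 24 fits that left out 1 mouse, each with an adjusted p of 0.0571.

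**Figure D4:**
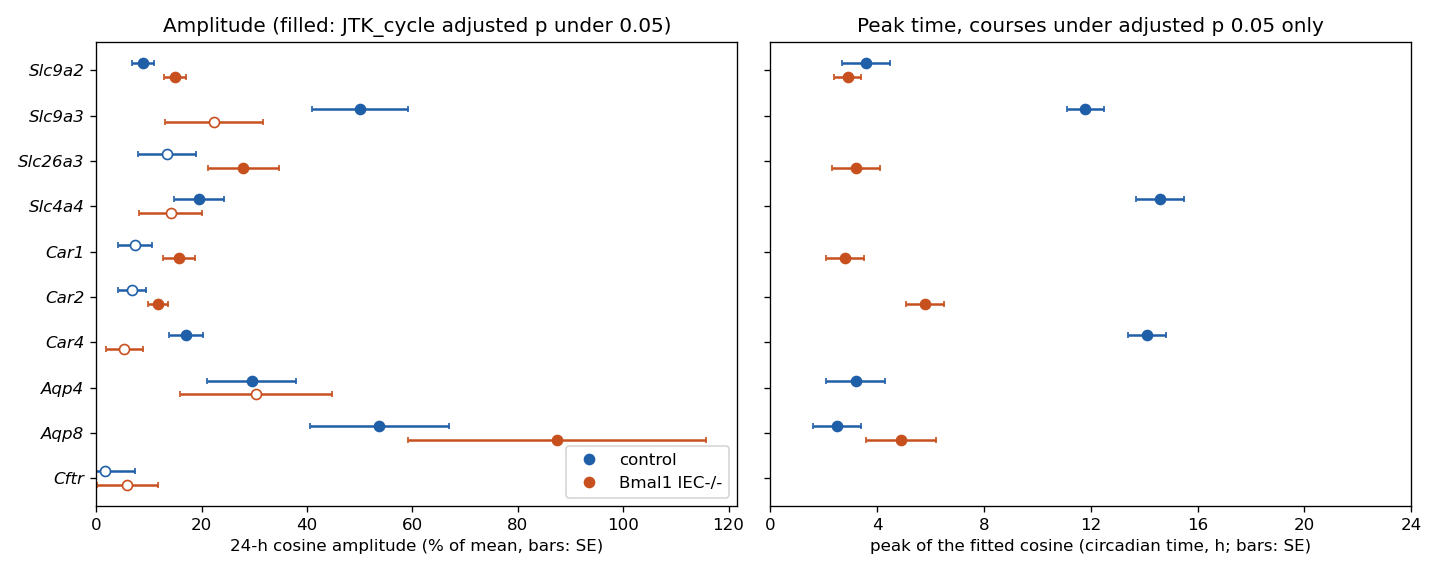
Amplitude of the fitted 24-h cosine as a percent of the mean (left) and peak in hours of circadian time (right) for each gene, blue for controls and orange for Bmal1 IEC-/- mice, with bars for the SE, filled points for a JTK_cycle adjusted p under 0.05, and peaks only for those courses. Control peaks of Slc9a3, Slc4a4 and Car4 lie at 11.8 to 14.6 h, and all 5 peaks in Bmal1 IEC-/- mice lie at 2.8 to 5.8 h.

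A test that asks for any difference among the 6 times, without a cosine shape, called more members in controls. With edgeR and circadian time as 6 classes within each genotype, 9 of 10 members passed in controls, against 47.4% of genes tested, and 6 of 10 in Bmal1 IEC-/- mice, against 14.5%. This test was chosen after the data were seen. Cftr passed in controls (adjusted p = 0.0104), where its group mean was highest at CT1 at 897.4 ± 71.59 (SD, n = 4) and again high at CT13 at 864.6. Car2 passed in controls as well (adjusted p = 0.00614), and Car1 did not (adjusted p = 0.287). Slc26a3 passed in controls (adjusted p = 0.00197) and Slc9a3 in Bmal1 IEC-/- mice (adjusted p = 0.017), where JTK_cycle had not called them.

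The change of rhythm between genotypes was then tested directly, by letting amplitude and phase of a 24-h cosine depend on genotype. Car4 (adjusted p = 0.0182) and Car2 (adjusted p = 0.0358) passed, 2 of 10 members against 0.935% of all genes, by edgeR's quasi-likelihood test. For Car4 the control course rose from 1245 at CT1 to 1845 at CT13 while the Bmal1 IEC-/- means stayed between 942.1 and 1154. For Car2 the genotypes were close at CT5 and CT9 and apart at CT17, where the controls had 2944, 3273, 3414 and 3586 and the Bmal1 IEC-/- mice 2343, 2515, 2300 and 2445. At CT5 the Car2 controls had 3022, 2775, 2754 and 3296 and the Bmal1 IEC-/- mice 3260, 3060, 3245 and 3029, which overlapped. With DESeq2 the adjusted p was 0.00261 for Car4 and 0.00561 for Car2. With time as 6 classes the Car4 call was lost (adjusted p = 0.0626) and that of Car2 was kept (0.00667), and without a filter on low counts the Car2 call was lost (0.0729). With 1 mouse left out, the Car2 call was lost in 9 of 46 fits, with an adjusted p of up to 0.0698, and that of Car4 ranged from 0.00796 to 0.0436.

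Slc9a3 (adjusted p = 0.423), Slc26a3 (0.438), Car1 (0.154) and Aqp8 (0.4) had an unadjusted p under 0.05 in the same test but did not pass after adjustment, so that 6 of 10 members lay under this unadjusted threshold against 10.3% of all genes. Slc9a2 (adjusted p = 0.711), Slc4a4 (0.924), Aqp4 (0.998) and Cftr (0.948) were above it. The JTK_cycle calls of Slc9a3, Slc4a4 and Aqp4 in controls alone did not go with a difference between genotypes that passed the adjusted test. With all 48 mice Car1 passed too (adjusted p = 0.02), and the 2 added mice held 54631 and 65098 normalized counts of Car1, above the other 22. In a coarser test of day (CT1, CT5 and CT9) against night, 0 of 10 members passed with edgeR or DESeq2, against 0.0531% of all genes with edgeR, and Car2 and Car4 had an unadjusted p under 0.05 with edgeR.

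The other genes of these transport steps were followed in 7 lists of 89 genes in all. Of the 67 that could be tested, 12 were lower, 3 were higher and 52 did not pass, with a median log2 fold change of -0.06, and 4 had a changed rhythm. Over all genes 5.72% were lower, 4.83% were higher and 0.935% had a changed rhythm, and the counts of each list below stand against these shares. In the list of Na/H exchange and its scaffolds, 1 of 13 tested genes fell, 1 rose and 11 did not pass. Slc9a3r1 (NHERF1), a scaffold that anchors Slc9a3 and Cftr at the apical membrane, fell from 754.5 ± 231.0 to 544.7 ± 60.88 normalized counts (SD, n = 24 and 22; log2 fold change -0.47, SE 0.06, adjusted p = 4.3e-07), and its rhythm changed (adjusted p = 0.000356). Prkg2, the membrane-bound cGMP-dependent kinase, rose from 515.4 ± 108.4 to 632.1 ± 87.26 (log2 fold change 0.34, SE 0.06, adjusted p = 5.88e-05), and its rhythm changed as well (adjusted p = 0.0201). Of the 7 tested genes of anion exchange and bicarbonate transport 0 passed with edgeR or DESeq2, 0 had an unadjusted p under 0.05, and their log2 fold changes had a median of -0.06.

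**Figure D5:**
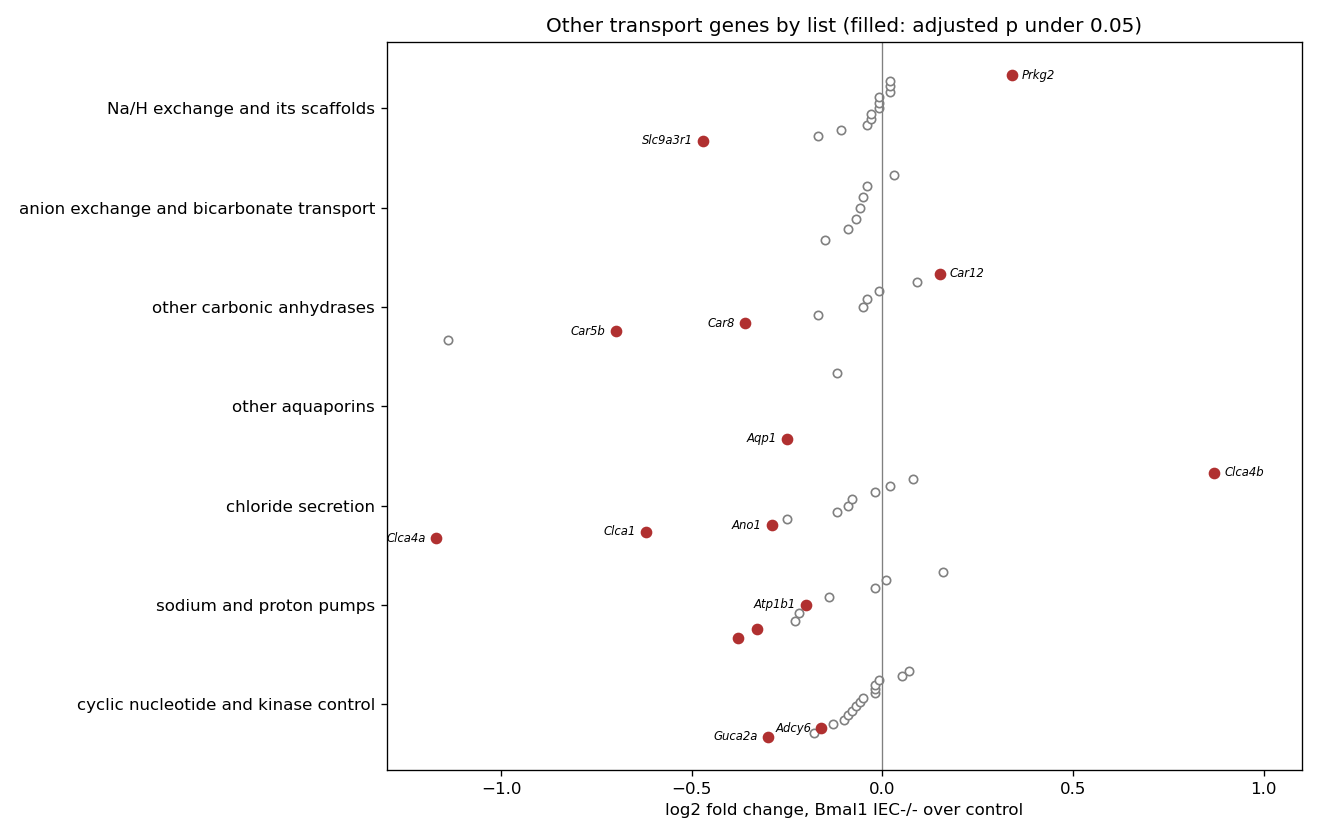
Log2 fold change of Bmal1 IEC-/- over control (x axis) for the 67 tested genes of the 7 lists (rows), with filled points for an adjusted p under 0.05 (edgeR), named where the text gives their values, and open points for the rest. Of the filled points 12 lie to the left of 0 and 3, Prkg2, Car12 and Clca4b, to the right.

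Among the other carbonic anhydrases, Car8, a family member without catalytic activity, had a log2 fold change of -0.36 (SE 0.05, adjusted p = 3.74e-06), the mitochondrial Car5b of -0.70 (SE 0.23, adjusted p = 0.0356) and the membrane form Car12 of 0.15 (SE 0.04, adjusted p = 0.00892). Car5b had a low level, 14.74 ± 8.582 normalized counts in controls and 8.991 ± 5.323 in Bmal1 IEC-/- mice (SD). The other 6 tested genes of that list did not pass. Of 2 tested aquaporins, Aqp1, mainly a water channel of vessels, fell by 0.25 on the log2 scale (SE 0.04, adjusted p = 1.55e-05). Aqp2 was at 0 in all mice.

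In the chloride secretion list 3 of 11 tested genes fell and 1 rose. Clca1, a secreted goblet cell protein, fell from 6265 ± 1002 to 4113 ± 1376 normalized counts (log2 fold change -0.62, SE 0.10, adjusted p = 8.57e-06), and Ano1, the calcium-activated chloride channel, had a log2 fold change of -0.29 (SE 0.06, adjusted p = 0.000218). Clca4a fell from 304.8 ± 144.9 to 138.9 ± 99.23 (log2 fold change -1.17, SE 0.20, adjusted p = 2.51e-05) with a changed rhythm (adjusted p = 0.00122), and the related Clca4b, named here after its value was seen, had a log2 fold change of 0.87 (SE 0.26, adjusted p = 0.0218). Clca4b had a low level, 9.255 ± 4.739 normalized counts in controls and 16.88 ± 15.24 in Bmal1 IEC-/- mice (SD), with single mice from 1.064 to 68.63. Clca4a and Clca4b are similar in sequence, and reads that map equally well to both fell below the mapping quality that the authors required and were not counted.

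Among the sodium and proton pumps, Atp1b1, a beta subunit of the Na/K-ATPase that drives sodium absorption from the basolateral side, fell from 3838 ± 922.6 to 3364 ± 462.9 normalized counts (log2 fold change -0.20, SE 0.05, adjusted p = 0.00263). The rhythm of Atp1b1 changed as well (adjusted p = 0.023). In the list of cyclic nucleotide and kinase control, 2 of 16 tested genes fell: Guca2a, the hormone guanylin, by 0.30 (SE 0.04, adjusted p = 2.1e-07) and Adcy6, an adenylyl cyclase, by 0.16 (SE 0.04, adjusted p = 0.00187) on the log2 scale.

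Cell type markers moved beside these changes, and their counts stand against the 5.72% of all genes that were lower and the 4.83% that were higher. Of 10 epithelial markers 2 were higher and 1 was lower in Bmal1 IEC-/- mice, with median summed levels of 8449 CPM in controls and 8588 in Bmal1 IEC-/- mice. Scaled to the sum of these markers instead of the whole library, the log2 fold change was -0.82 for Slc26a3 (adjusted p = 4.42e-09), -0.59 for Car4 (adjusted p = 3.83e-13) and 0.89 for Aqp4 (adjusted p = 1.23e-05). Of 10 surface colonocyte markers 4 were lower, 1 was higher and 2 had a changed rhythm, and their sum ranged from 19142 to 25754 CPM in controls and from 18705 to 22217 in Bmal1 IEC-/- mice. Guca2a is in both this list and the cyclic nucleotide list. Of 8 smooth muscle markers 3 were lower, with median sums of 5398 and 4746 CPM, and of 8 goblet cell markers, which include Clca1, 3 were higher and 2 lower, with median sums of 23980 and 22171 CPM. Of 7 fibroblast markers 2 were lower (median sums of 1529 and 1326 CPM), and of 8 markers of enteric neurons and glia 2 were lower (80.99 and 72.36 CPM). Of 8 tested small intestine markers 2 were lower, 1 was higher and 1 had a changed rhythm (1096 and 1072 CPM). Of 8 markers of the crypt base and dividing cells 1 was lower (416.6 and 431.6 CPM), of 7 tested leukocyte markers 1 was lower (550.4 and 591.0 CPM), and of 4 tested red blood cell markers 0 passed with edgeR or DESeq2 and 0 had an unadjusted p under 0.05. Single markers, named after their values were seen, moved as far as the members: the log2 fold change was 0.59 for the surface marker Slc51a (adjusted p = 5.46e-11), 0.70 for the goblet cell marker Zg16 (adjusted p = 1.04e-09) and -2.89 for Sis of the small intestine list (adjusted p = 5.97e-23). The part of these markers in the changes of the members was not tested. Absorptive transporters differ along the length of the colon. The anterior Hox genes, which mark position along the gut, had median sums of 151.8 and 150.9 CPM with 0 of 5 tested genes passing with edgeR or DESeq2 and 0 under an unadjusted p of 0.05. Of the distal markers, 0 of 2 tested genes passed with edgeR or DESeq2 and 1 had an unadjusted p under 0.05, with median sums of 7.243 and 5.944 CPM. Hoxd11 had a log2 fold change of -0.24 (SE 0.11, adjusted p = 0.184) and Hoxa13 of -0.10 (SE 0.18, adjusted p = 0.805), and Hoxb13 and Hoxd13 were at or near 0 in both genotypes.

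Within groups, some members varied together from mouse to mouse. After subtraction of the mean of each of the 12 groups, Pearson's r over the 46 mice was 0.74 between Slc4a4 and Cftr, 0.57 between Aqp4 and Aqp8, and -0.48 between Slc26a3 and Car4. Among the 10217 genes with a mean of at least 10 CPM, the gene most like each member by the same measure was Sppl2a for Slc4a4 (0.85), Gcc2 for Cftr (0.83), Agr2 for Car1 (0.78), Srsf6 for Slc26a3 (0.75), Insig1 for Aqp8 (0.73), Slc6a6 for Slc9a3, Mrpl38 for Car4 and Sprr2a2 for Aqp4 (0.69 each), Ptprj for Slc9a2 (0.65) and Cbr4 for Car2 (0.63). These values share library, depth and dissection within a mouse and are given as a description. Annotated antisense genes overlap Slc9a2, Aqp4 and Cftr, and whether their reads were kept apart depends on a strand setting that is not given in the sources used here. Annotated pseudogenes overlap Slc26a3, Car1 and Cftr on the same strand, where strand does not separate reads. Per the study's methods, reads that overlapped multiple features were not counted. The overlaps given here are of whole genes, and their exons were not compared.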

How the data were processed

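Gene counts were deposited by the authors for 48 mice and were used as whole-number counts per gene without normalization. Per the labels and the study's methods, the authors prepared libraries with a stranded mRNA kit, trimmed reads with Trimmomatic 0.39, aligned them with STAR 2.7.5c to mm10 and counted exon reads of mapping quality 4 or more with featureCounts 1.4.6. By the same methods, reads that overlapped multiple features were not counted. The study used DESeq2 1.22.0 and JTK_cycle. The strand setting is not given in the sources used here. Symbols came from GENCODE vM21 (55141 of 55401 genes matched). The members and the lists of related genes and markers were chosen with earlier results of these data known.

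The 2 Bmal1 IEC-/- mice left out (SV384 and SV385) were identified by comparing mean normalized counts of 200 genes in the study's own table with every one of 1128 pairs left out: the median relative difference was 6.45e-07 for this pair and 0.00675 for the next. Every library was a separate mouse, and 72 within-group pairs differed by a chi-square per gene of 2.006 to 16.307, so that no library was a copy of another of its group.

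Normalized counts were divided by median-ratio size factors of the 46 mice. edgeR 4.0.16 in R 4.3.3 (quasi-likelihood F test, TMM, genes kept by filterByExpr over the 12 groups, 15073 genes) tested genotype with circadian time as a covariate, a genotype-dependent 24-h cosine, and a genotype-dependent step between day and night, each with Benjamini-Hochberg adjustment. All 10 members passed the filter. JTK_cycle was rewritten with even-hour phases and tested on simulated data, as were the edgeR fits. Cosine amplitudes and peaks are least-squares fits to normalized counts. The genes named are the members, from each list up to 3 with the smallest adjusted p under 0.05 for genotype and up to 1 for change of rhythm, the gene most like each member, and Arntl and Nr1d1. Some results that this rule selects are not reported here. DESeq2 1.42.0, other normalizations, filters and sets of mice were tried as alternatives. With depths of 3144997 to 4785844 counts, Aqp8 lay near the limit of what single mice resolve.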

Additional observations from a re-analysis of the deposited data

Results flagged for a closer look

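In 6 of 120 groups of 4 mice, where chance gives about 1 in 20, 1 mouse lay far from the other 3 by Dixon's criterion at the 95% level. For Slc26a3 these were control SV469 at CT1, with 761.2 normalized counts against 1123 to 1152 in the other 3, and control SV421 at CT13, with 1033 against 745.3 to 791.4. For Car2 it was Bmal1 IEC-/- mouse SV400 at CT9, with 3226 against 3101 to 3111. For Aqp4 it was Bmal1 IEC-/- mouse SV477 at CT5, with 582.2 against 184.3 to 250.8. For Aqp8 these were control SV442 at CT5, with 66.82 against 46.63 to 49.47, and Bmal1 IEC-/- mouse SV385 at CT1, with 201.3 against 24.35 to 46.26, which is one of the 2 mice outside the 46.

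The course over the day differed between the genotypes by the test of the interaction itself (edgeR) for Car2 (adjusted p = 0.0358) and Car4 (adjusted p = 0.0182), as described above.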

How the results depend on the processing

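Of the 10 members, 6 passed the test of genotype, and the count was 2 with a fold change of 1.5 and 5 to 6 with 1 mouse left out. The 2 members with a changed rhythm became 1 without a filter on low counts and 1 with time as 6 classes, and 1 to 2 with 1 mouse left out. Rhythm calls numbered 5 to 8 in controls and 5 in each fit of Bmal1 IEC-/- mice, and those of genotype by day or night 0 in each fit, with 1 mouse left out. With RLE normalization and with DESeq2 the counts stayed at 6 for genotype and 2 for change of rhythm. At these depths Aqp8, with 1.903 to 193.7 normalized counts, is the member least resolved. Over 2100 values of single members recomputed under alternatives, 2010 kept direction and side of the threshold, 32 lost a call, 15 gained one, and 43 changed sign, of which 0 were called. The sign changes outside the fits without 1 mouse were Car1 (0.04) and Aqp8 (0.02) for genotype with all 48 mice, Car1 without a filter (0.01), and Slc9a3 for day against night with all 48 mice (-0.06). The Slc9a3 log2 fold change for genotype ran from -0.07 to 0.01, that of Car1 from -0.02 to 0.01, and the Slc9a3 difference for day against night from -0.12 to 0.14. The cause was not tested.

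The Car2 genotype call was lost with all 48 mice (adjusted p = 0.168), without a filter (0.0866), without time in the model (0.0784), and without any one of SV397 (0.0652), SV417 (0.0551), SV438 (0.0547), SV453 (0.053), SV448 (0.0601), SV437 (0.0575) and SV470 (0.0554). The Car2 change of rhythm was lost without a filter (0.0729) and without any one of SV443 (0.0553), SV446 (0.0657), SV438 (0.0578), SV453 (0.0645), SV439 (0.0512), SV399 (0.0698), SV416 (0.0575), SV437 (0.0605) and SV481 (0.0654). The Car4 change of rhythm stayed at 0.00796 to 0.0436 over the 46 fits. The Aqp4 rhythm in controls was lost without any one of SV455, SV469, SV442, SV447, SV396, SV397, SV424 and SV438 (0.0571 each). Slc26a3 in controls gained a call without any one of SV454, SV455, SV468 and SV443 (0.0338 each), SV397 (0.0404), SV421 (0.0481) and SV453 (0.0481), and Car1 in controls without SV443 (0.0404). With adjustment across genes (q) the rhythm calls of Slc4a4 (0.0808) and Aqp4 (0.141) in controls and of Slc26a3 (0.0662) in Bmal1 IEC-/- mice were lost. No paired analysis was possible because each mouse has a number of its own.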
